A study of Mus musculus with 30 samples.

Results

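In injured mouse sciatic nerve, RNA that came down with an antibody against PTBP1 was compared with the input RNA of the same kind of extract. The comparison rested on 6 of the 30 libraries of the series, 3 of PTBP1 immunoprecipitation (IP) and 3 of input, joined over the 12399 transcripts that both deposited tables list. Of these, 12393 passed the low-count filter and were tested. The extract was axoplasm, the lysate left after nerves were ground and centrifuged, taken 7 days after a crush, with 10 nerves pooled per sample. The IP libraries came from RNA recovered on protein G beads with the PTBP1 antibody. The input libraries came from total RNA of the extract. A further 12 libraries shared the fit: blocked IP of injured nerve, made with antibody already occupied by its blocking peptide, and the IP, blocked IP and input of naive, uncrushed nerve. The labels give no strain, age or genetic change for any group, and they describe the 3 libraries of a group as independent biological repeats. Ground nerve holds Schwann cells, fibroblasts and blood-borne cells beside axons. In such a bulk extract fewer cells of a type and less RNA per cell cannot be told apart.

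PTBP1, the polypyrimidine tract-binding protein, is an RNA-binding protein of the hnRNP family whose RNA recognition motifs bind stretches of C and U, such as UCUU and CUCUCU. In the nucleus it represses splicing of many exons. In the cytoplasm it can bind untranslated regions and is known to take part in mRNA stability, internal initiation of translation and mRNA localization.

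The transcripts that led the comparison are easiest to read from their own sequence. In each of the 12 named transcripts with the largest rise, a long unbroken run of pyrimidines lay in the 3′ untranslated region. Below are 30-base windows of transcript sequence on GRCm38 (GENCODE M21), written as DNA 5′ to 3′ on the strand of the gene. Capitals mark the start of the longest run of C or T in the transcript. Where capitals reach the end of the line the run goes on, and its full length is given in the next paragraph.
Shank1, chr7:44358613-44358642, + strand: cccagCCTCCTTCTTCTTTTTCTTCTTCTT
Urod, chr4:116990107-116990136, - strand: ccccgTTTCTCTCTCTCTCTCTCTCTCTCT
Frg1, chr8:41397511-41397540, - strand: ctttgTCTCCTCCCTCCCTCTCTCTCTCTC
Tagln2, chr1:172506863-172506892, + strand: aattgCCTCTCTCTCTCTCTCTCTTTCTCT
Marcks, chr10:37135567-37135596, - strand: tcttgTCCTTTCTTTCTTTCTTTCTTTCTT
Col1a1, chr11:94952227-94952256, + strand: ccccaCTTTTTTCTCTCCCCCCCCCCCCag
Bgn, chrX:73495120-73495149, + strand: atgtgTTCCTCCTCTTCCTTgctcatgtct
Actb, chr5:142903654-142903683, - strand: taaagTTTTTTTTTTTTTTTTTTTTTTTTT
Rpl35, chr2:39005114-39005143, - strand: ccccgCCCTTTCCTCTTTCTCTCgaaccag
Rps12, chr10:23786797-23786826, - strand: gaccgCCCTCatccacgatggcctagcacg

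The first 7 belong to transcripts called higher in IP, and the last 2 to ribosomal protein transcripts called lower. Shank1 held a run of 253 pyrimidines, Urod and Frg1 48 each, Tagln2 61, Marcks 54 and Col1a1 23. Bgn is shown because it was called higher with a run of only 15. Actb is shown because its run of 29 is nearly all T and its transcript was not called. The run of Rpl35 was 18 bases in the 5′ untranslated region, and that of Rps12 was 5 bases in the coding region.

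Joined totals were 14811382 to 21170556 counts in the 3 IP libraries and 7514641 to 13268559 in the 3 inputs. Of the IP libraries, library 3 stood apart. Its log2 CPM (counts scaled to a common library size, by TMM totals) correlated with those of the 3 inputs at 0.858, 0.919 and 0.931, against 0.702 to 0.788 for IP libraries 1 and 2. Injured input 1 was the shallowest, and 3 transcripts, Yam1, Lars2 and Gm15564, took 57.7%, 24.6% and 7.46% of the counts of inputs 1 to 3, against 0.776% to 2.22% in the IP libraries. With these 3 removed, the same fit called 128 transcripts, of which 124 were among the 127 called with them. In the libraries of injured nerve the summed Schwann cell markers were at 4483 to 6862 CPM in input and macrophage markers at 10259 to 12160 CPM, while the 8 measured axon and sensory neuron markers summed to 145 to 205 CPM.

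A small set of transcripts stood far higher in IP than in input. By edgeR's quasi-likelihood test, 119 of 12393 transcripts (0.960%) were called higher in IP than in input and 8 (0.0646%) lower, at a Benjamini-Hochberg adjusted p under 0.05. The fitted log2 fold changes of the 119 ran from 1.84 to 7.06 with a median of 4.16, and the median over all transcripts tested was −0.06. All 119 had every IP library above every input, a separation that 14.8% of all transcripts showed, and all 8 had every IP library below every input, as did 17.0% of all. Each of the 119 came from a different gene, and 113 were annotated as protein-coding transcripts. They were more frequent among abundant transcripts: when the tested transcripts were ranked by mean input level and cut into 5 equal classes, 70 lay in the highest class and 5 in the lowest 2. The smallest adjusted p was 0.0203, so no call was far past the threshold.

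The size of the rise differed between IP libraries. The median ratio of the 119 transcripts to the mean input was 27.9 in IP library 1, 23.2 in library 2 and 3.66 in library 3. Library 3 was the lowest of the 3 IP libraries for 118 of the 119. The call count followed the libraries used. Without IP library 3 it was 372 (283 higher and 89 lower, 125 of them among the 127 calls described above). Without IP library 2 it was 3. Without IP library 1, or without injured input 1, 2 or 3, it was 0 by the same test, with 592, 709, 762 and 842 transcripts at an unadjusted p under 0.05. The sign of all 127 calls was kept in each of these 6 fits. DESeq2's Wald test called 641 transcripts, among them 126 of the 127, and limma voom called 0, with 843 at an unadjusted p under 0.05.

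**Figure D1:**
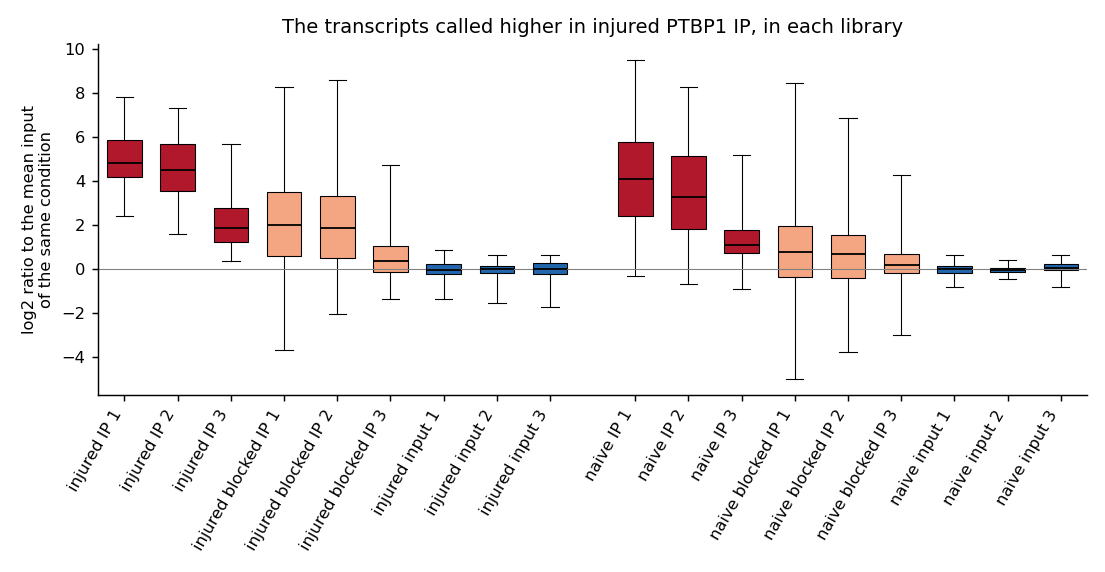
Ratio of each of the 119 transcripts called higher to the mean input of the same condition (log2 scale, y axis) in each of the 18 libraries (x axis); boxes span the quartiles with the median as a line, and whiskers run to the lowest and highest transcript. The medians of injured IP libraries 1 and 2 correspond to ratios of 27.9 and 23.2, that of IP library 3 to 3.66, and those of the blocked IP to 4.03, 3.59 and 1.27.

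Among the 12 named transcripts with the largest rise, the highest fold belonged to Shank1, a scaffold protein of the postsynaptic density. Shank1 (ENSMUST00000107938, 25 exons, chr7:44310253-44360572) stood at 2851, 1990.0 and 737 CPM in IP libraries 1 to 3 and at 24.9, 4.43 and 12.7 CPM in the inputs. No IP value came near an input value, and the log2 fold change was 7.06 ± 1.32 (SE, n = 3 per group, edgeR adjusted p = 0.0264). Urod (ENSMUST00000030446, chr4:116989965-116994413), an enzyme of heme synthesis, stood at 2016, 1630.0 and 132 CPM in IP against 9.96, 14.7 and 10.96 CPM in input. Its inputs lay close together and its IP libraries spread over more than a factor of 10, with a log2 fold change of 6.72 ± 1.08 (edgeR adjusted p = 0.0203).

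Frg1 (ENSMUST00000033999, chr8:41397459-41417074), which encodes a nuclear protein linked to RNA processing, stood at 22986, 30094 and 1365 CPM in IP and at 236, 238 and 126 CPM in input. The log2 fold change was 6.51 ± 1.07 (edgeR adjusted p = 0.0203). Tagln2 (ENSMUST00000111230, chr1:172500047-172507380), encoding the actin-binding protein transgelin 2, stood at 33447, 44195 and 2956 CPM in IP and at 297, 314 and 299.7 CPM in input, a log2 fold change of 6.47 ± 1.30 (edgeR adjusted p = 0.0308). In both, IP library 3 was more than 10 times below the other IP libraries and still above every input.

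IP library 3 was the lowest of the 3 in the other 8 as well, by factors that varied. Stard5, a lipid-transfer protein of the START family, had 14777, 17840.0 and 1380.0 CPM in IP and 121, 127 and 86.1 CPM in input, a log2 fold change of 6.67 ± 1.24. The remaining log2 fold changes were 6.90 for St8sia1, which makes ganglioside GD3, 6.80 for Mylk4, a kinase of the myosin light chain kinase family, 6.61 for Ulk3, a kinase related to autophagy kinases, 6.47 for Sp100, a component of nuclear bodies, 6.32 for Col6a2, 6.31 for Lbh, a transcription cofactor, and 6.26 for Specc1. Mylk4 was the least even of the 12: 486 CPM in IP library 1 against 27.1 and 22.1 CPM in libraries 2 and 3, with inputs at 0.949 to 2.49 CPM. Without IP library 1 its log2 fold change was 3.98, in a fit that called no transcript at all. The longest pyrimidine run of these 12 ranged from 48 bases in Urod and Frg1 to 253 in Shank1 and Mylk4. Runs of simple repeats are shared by many transcripts, and the sources used here do not give how reads that match several places or several transcripts of a gene were counted, so the level of any one transcript with such a run is uncertain.

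**Figure D2:**
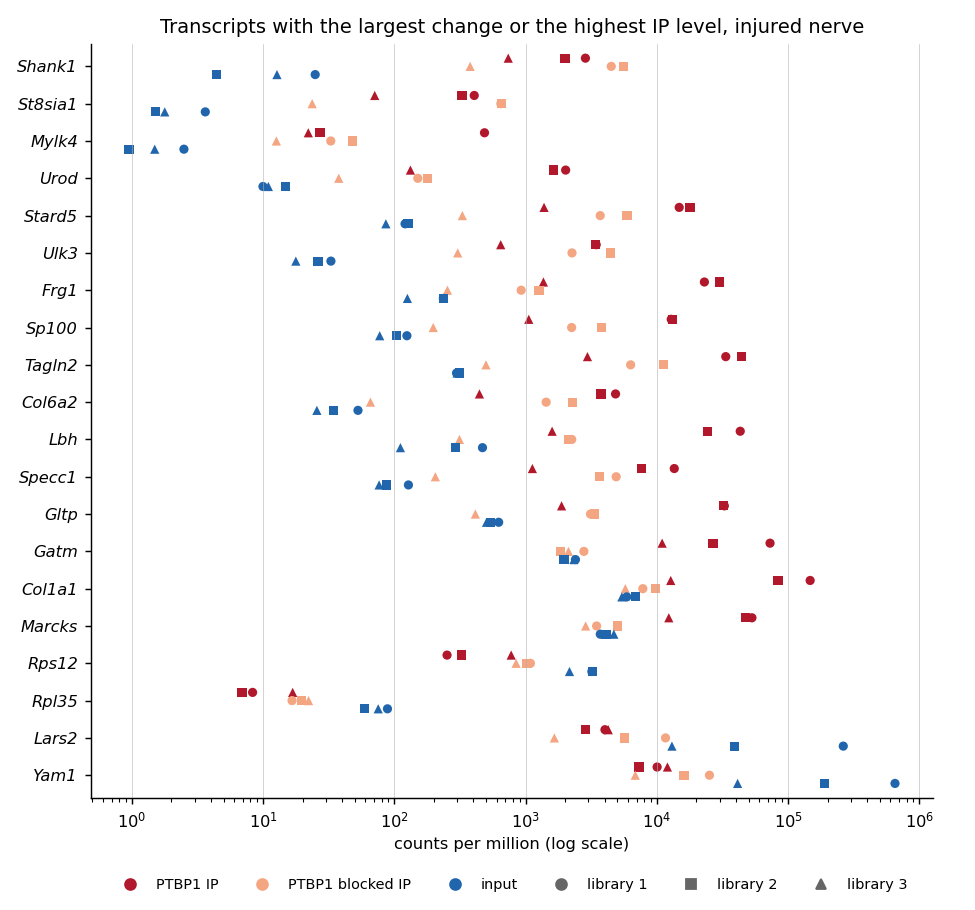
CPM (x axis, log scale) of 20 named transcripts (y axis) in the 3 PTBP1 IP, 3 blocked IP and 3 input libraries of injured nerve, 1 point per library. From Shank1 to Marcks every IP point lies to the right of every input point, and from Rps12 to Yam1 to the left, while in Shank1 2 of the blocked IP points lie beyond the IP points.

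Several of the transcripts called higher were already abundant in input. The extreme was Col1a1 (ENSMUST00000001547, chr11:94936224-94953042, 51 exons), the alpha 1 chain of fibrillar type I collagen. It rose from 5891, 6843 and 5406 CPM in input to 146936, 83555 and 12739 CPM in IP, a log2 fold change of 3.75 ± 0.67 (edgeR adjusted p = 0.0238). As a share of all counts Col1a1 took 5.33% ± 3.44 in IP and 0.589% ± 0.210 in input (SD, n = 3). The other chain of type I collagen did not follow: Col1a2 stood at 5825, 4446 and 8146 CPM in IP and 5720.0, 7213 and 8415 CPM in input, with overlapping groups and a log2 fold change of −0.21 ± 0.48 that was not called.

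Marcks, a substrate of protein kinase C at the plasma membrane, stood at 52921, 47136 and 12315 CPM in IP and 3702, 4091 and 4697 CPM in input, with a log2 fold change of 3.17 ± 0.54 (edgeR adjusted p = 0.0238). Gatm, an enzyme of creatine synthesis, stood at 72718, 26780.0 and 10956 CPM in IP and 2394, 1959 and 2330.0 CPM in input, with a log2 fold change of 4.05 ± 0.66 (edgeR adjusted p = 0.0203). Gltp, a glycolipid transfer protein, stood at 32624, 32074 and 1877 CPM in IP and 623, 538 and 503 CPM in input, with a log2 fold change of 5.32 ± 1.15 (edgeR adjusted p = 0.0351). In Marcks and Gatm the lowest IP library was still above every input by more than 2 times.

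Genes of the extracellular matrix gave 6 of the calls. Of 17 measured collagens, Col1a1 and Col6a2 were called higher and none lower, with a median log2 fold change of −0.12. The 2 are 11.8% of the list, where 0.960% of all transcripts were called higher. Each gene of a list entered by a single transcript, its most abundant on average across all libraries of the fit, IP included. That choice favours transcripts high in IP, and calls were more frequent among abundant transcripts. The rates of the lists can therefore not be weighed against that of all transcripts. Of 36 measured matrix glycoproteins, integrins and laminins, 4 (11.1%) were called higher and none lower, with a median of −0.07, beside −0.06 over all transcripts. The 4 were Bgn, Nid1, Itgb1 and Thbs1. Bgn, the small proteoglycan biglycan, stood at 27033, 31220.0 and 5160.0 CPM in IP and 320.4, 435 and 564 CPM in input, a log2 fold change of 5.59. Nid1, a basement membrane linker, stood at 27458, 20858 and 4289 CPM in IP and 880.4, 986 and 1547 CPM in input, a log2 fold change of 3.95. The log2 fold changes of Itgb1, the beta 1 integrin, and Thbs1, a matricellular protein, were 2.57 and 2.49. The other collagens ranged from −0.88 for Col8a1 to 2.70 for Col14a1 (adjusted p = 0.0544). Under DESeq2 size factors the medians of the 2 lists moved to 0.11 and 0.03, while that over all transcripts moved to 0.12. Without IP library 3 the collagens had 3 calls and the other matrix list 4, all higher.

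RNA-binding proteins and splicing factors gave 4 calls. Of 51 measured splicing factors and hnRNPs, 3 (5.88%) were called higher and none lower, with a median log2 fold change of −0.22. These were Son, a splicing cofactor of nuclear speckles, at 5.86, Khsrp, a KH-domain protein of mRNA decay and splicing, at 4.48, and Nono, a paraspeckle protein, at 2.47. Here too the choice of transcript per gene favours those high in IP, so the rate is not weighed against that of all transcripts. Son stood at 9635, 7216 and 1299 CPM in IP and 137, 87.8 and 88.6 CPM in input, and Khsrp at 2991, 1919 and 247 CPM in IP and 111, 60.7 and 59.6 CPM in input. Of 29 other RNA-binding proteins 1 was called, Elavl1, the ubiquitous HuR protein that binds AU-rich elements, at 1394, 1156 and 532 CPM in IP and 202, 247 and 207 CPM in input, a log2 fold change of 2.23. Among 34 translation factors only Eif4h, a helper of the initiation helicase, was called, at 4.58, while the list's median was −0.87.

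Other lists gave 1 call or none, and at 0.960% of all transcripts called higher a single call in a list of this size is no result about the list. Of 16 measured genes of myelin and its lipids, Drp2, a dystrophin-related protein of Schwann cells, was called higher at 2.85, and the median was −0.17. Of 12 nuclear or structured noncoding RNAs, H19, an imprinted noncoding RNA, was called at 5.42. Malat1, a nuclear noncoding RNA, stood at 17415, 15139 and 21375 CPM in IP and 21052, 11114 and 10036 CPM in input, with overlapping groups. Of 41 cytoskeletal genes Tubb5, a beta-tubulin, was called at 1.90, with a list median of −0.48. Lists of the cell cycle (28 measured), chemokines and cytokines (26), lysosome and proton pump (34), chaperones (27), histones (13), cholesterol synthesis (18) and immediate-early factors (19) held no call in either direction. With DESeq2's size factors and with library totals alone, the median over all transcripts moved from −0.06 to 0.12 and −0.25, and small list medians should be read against that shift.

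**Figure D3:**
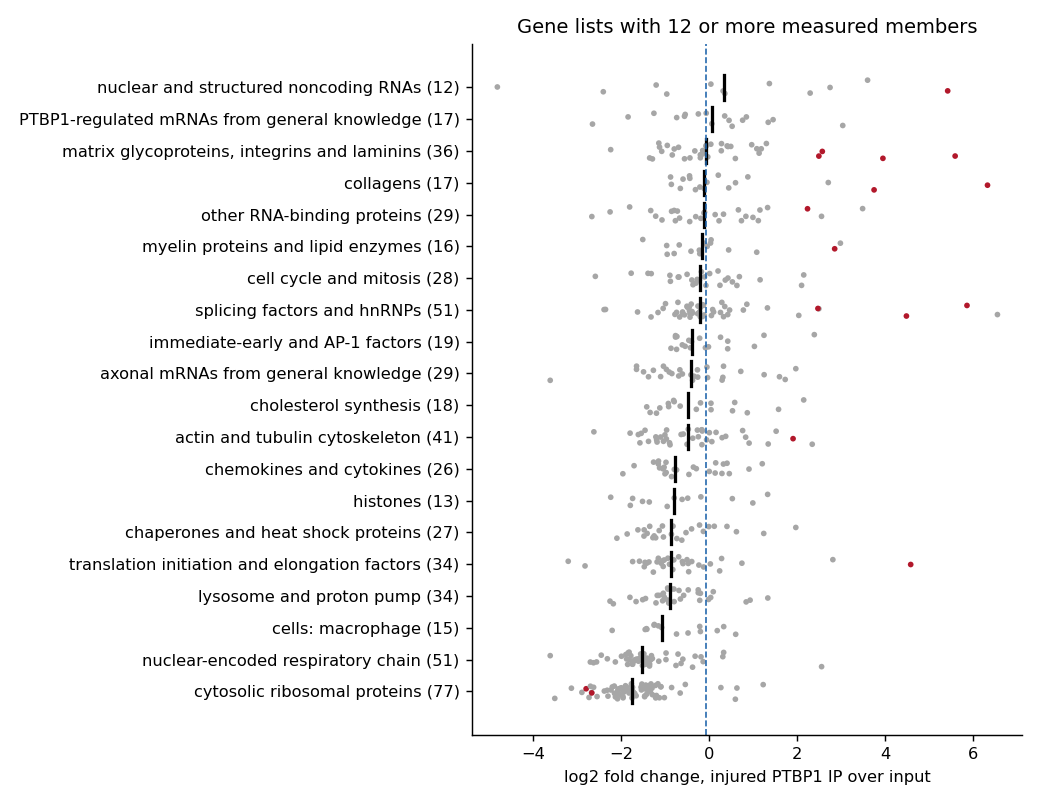
Fitted log2 fold change of injured PTBP1 IP over input (x axis) for every measured member of the gene lists with at least 12 (y axis, number measured in brackets), 1 point per gene; red points passed an adjusted p of 0.05, black bars are list medians and the dashed line is the median of all transcripts, −0.06. Ribosomal proteins have the lowest median, −1.75, and red points to the right occur singly in several lists.

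The 8 transcripts called lower included 2 of ribosomal proteins, the noncoding Yam1 and the mitochondrial synthetase Lars2. Of 77 measured cytosolic ribosomal protein genes, 2 were called lower and none higher, with a median log2 fold change of −1.75, and in 54 of the 77 every IP library lay below every input, as in 17.0% of all transcripts. Rps12, of the small subunit, stood at 252, 323 and 776 CPM in IP and 3193, 3238 and 2157 CPM in input, a log2 fold change of −2.67 ± 0.56 (edgeR adjusted p = 0.0320). Rpl35, of the large subunit, stood at 8.31, 6.91 and 16.8 CPM in IP and 88.5, 59.3 and 75.3 CPM in input, a log2 fold change of −2.80 ± 0.63 (edgeR adjusted p = 0.0422). In both, IP library 3 was the nearest to input. Of the 51 measured nuclear-encoded genes of the respiratory chain none was called, 16 were lower at an unadjusted p under 0.05, and the median was −1.52. Without IP library 3, the same test called 19 ribosomal protein genes and 7 respiratory chain genes, all lower, with medians of −2.42 and −2.26.

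Those 2 lists consist of short mRNAs, and length moved with the comparison as a whole. The 8 transcripts called lower had a median length of 451 bases, the 119 called higher 4078 and all tested 2736. Transcripts under 1000 bases took 3.40% ± 1.63 of counts in IP and 8.20% ± 0.342 in input (SD, n = 3, exact permutation p = 0.1, two-sided, the smallest possible). Over 5 equal classes of length the median log2 fold change was −0.66 in the shortest and 0.26 in the longest. The part of length in the calls on ribosomal proteins was not tested.

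Yam1, a noncoding RNA, stood at 10029, 7312 and 12020.0 CPM in IP and at 651004, 189102 and 41171 CPM in input, so that its inputs differed among themselves by more than 10 times. Its log2 fold change was −4.91 ± 1.01 (edgeR adjusted p = 0.0308), and without injured input 1 it was −3.50. Lars2, the mitochondrial leucyl-tRNA synthetase, fell likewise, from 262761, 39217 and 13010.0 CPM in input to 4018, 2867 and 4256 CPM in IP, at −4.82 ± 1.12 (edgeR adjusted p = 0.0472). Without injured input 1 it was −2.76, and that fit called no transcript at all. Together with Gm15564, Yam1 and Lars2 took 57.7%, 24.6% and 7.46% of the counts of inputs 1 to 3. Whether counts under these names are reads of these RNAs or of other RNA was not tested, so they are not read as levels of these genes. The other 4 called lower were Gm10076, Gm23935, Gm24187 and H3f3c. Gm23935 and Gm24187 are predicted RNAs of 57 bases and near-identical sequence, so the split of reads between them is uncertain. H3f3c had 1 count in the IP libraries together and 24 in the inputs, and no ratio is given.

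None of the 17 measured genes of a list of mRNAs known to be regulated by PTBP1 was called, with a median log2 fold change of 0.06. With 0.960% of all transcripts called higher, no call in a list of this size says little about it. Ptbp2, the neuronal paralog whose exon is a classic PTBP1 target, stood at 59.3, 52.6 and 89.2 CPM in IP and 61.1, 41.3 and 44.9 CPM in input, with overlapping groups and a log2 fold change of 0.45 ± 0.48. Ptbp3, a further paralog, stood at 160, 199 and 150 CPM in IP and 76.3, 93.4 and 114 CPM in input. Its groups did not overlap, and its log2 fold change of 0.84 ± 0.82 was not called. Transcripts of Ptbp1 itself were not analysed here. For 2 members of the regulated list with large but uncalled values, Gabbr1 and Pkm, the log2 fold changes were 3.03 ± 1.43 and −2.65 ± 2.08.

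Rhoa, a small GTPase whose mRNA is localized in axons, came closest among the genes chosen for their known part in axonal injury signalling. It stood at 3008, 2050.0 and 999 CPM in IP and at 634, 606 and 592 CPM in input, and the groups did not overlap. Its log2 fold change of 1.73 ± 0.41 was just outside the threshold (edgeR adjusted p = 0.0524). It was called without IP library 3, at 2.05. The others were not called: Kpnb1, importin beta 1, at −0.67 ± 0.39, Mtor, the growth kinase, at −0.05 ± 0.97, Stat3, a transcription factor, at −0.91 ± 1.14, and Ncl, nucleolin, at −0.68 ± 0.44. Among 29 measured mRNAs known from axons, none was called and the median was −0.42. Actb, the best-known localized axonal mRNA, stood at 9327, 10110.0 and 7516 CPM in IP and 20172, 19832 and 17972 CPM in input, all IP libraries below all inputs, with a log2 fold change of −1.11 ± 0.46 that was not called (adjusted p = 0.431).

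Markers of other cell types did not move together. The 15 macrophage markers had no call and a median log2 fold change of −1.08, with summed levels of 3059, 3257 and 9034 CPM in IP. Fibroblast and perineurial markers summed to 154539, 89493 and 28219 CPM in IP and 14825, 18340.0 and 21267 CPM in input, and Col1a1 was the only one of 8 that was called. Col1a1 made up most of that sum in IP libraries 1 and 2 and less than the other 7 together in IP library 3 and in the inputs. Lymphocyte markers summed to 574, 318 and 46.7 CPM in IP and 16.3, 18.99 and 21.4 CPM in input. Their 3 measured members, Cd4, Cd3e and Nkg7, had log2 fold changes of 4.39, 3.92 and 1.71, none called. The summed Schwann cell markers were at 7161 to 18643 CPM in IP. Red blood cell markers summed to 20.6 to 37.0 CPM in IP and 77.5 to 113 CPM in input, with no call among 4.

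The fold change of IP over input moved with the longest pyrimidine run of a transcript. This measure was chosen after the leading transcripts had been seen, so its values are a description, with no test. Of the 118 called-higher transcripts with annotated sequence, the median longest run was 44.5 bases, against 14 over all 12171 tested. A run of at least 30 was held by 77 of the 118 (65.3%) and by 7.19% of all. In the other direction, 77 of 875 transcripts with such a run were called higher (8.80%) and 41 of 11296 without (0.363%). Runs of purines served as the mirror image: their median was 17 in the called-higher transcripts and 15 in all, and a purine run of at least 30 was held by 13.6% and 6.98%. None of the 8 transcripts called lower had a pyrimidine run of 30.

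The fold change rose in steps with run length. Transcripts with a run of at most 11 (n = 3446) had a median log2 fold change of −0.48. The medians were −0.18 for 12 to 14 bases (n = 3408), 0.06 for 15 to 19 (n = 2982), 0.26 for 20 to 29 (n = 1460), 0.74 for 30 to 39 (n = 373) and 2.57 for 40 or more (n = 502). Of the last class 65, or 12.9%, were called higher. By purine runs the medians ran only from −0.45 at most 11 to 0.19 at 40 or more (n = 426). Across transcripts, which share libraries and are not independent, Spearman's rho with the log2 fold change was 0.32 for the pyrimidine run, 0.15 for the purine run and 0.26 for length.

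Each IP library showed the steps, in different size. In the class of 40 or more, the median log2 ratio to the mean input was 3.03 in IP library 1, 2.71 in library 2 and 0.90 in library 3, while the 3 inputs stayed between −0.09 and 0.09. Blocked IP gave 0.47, 0.48 and −0.04. From runs of at most 11 to runs of 40 or more, the median rose by 3.73, 3.30 and 1.075 in IP libraries 1 to 3. In blocked IP libraries 1 to 3 it rose by 1.37, 1.22 and 0.196. The rise in blocked IP libraries 1 and 2 was thus larger than that in IP library 3. As a share of all counts, these transcripts took 31.5%, 34.6% and 10.6% in the IP libraries, 13.2%, 18.6% and 5.11% in blocked IP and 1.94%, 3.40% and 4.60% in input. The means were 25.6% ± 13.1 in IP, 12.3% ± 6.80 in blocked IP and 3.31% ± 1.33 in input (SD, n = 3). With Yam1, Lars2 and Gm15564 removed from the totals they were 25.8% ± 13.1, 12.7% ± 7.06 and 4.69% ± 0.25. IP and blocked IP overlapped, and IP and input did not.

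**Figure D4:**
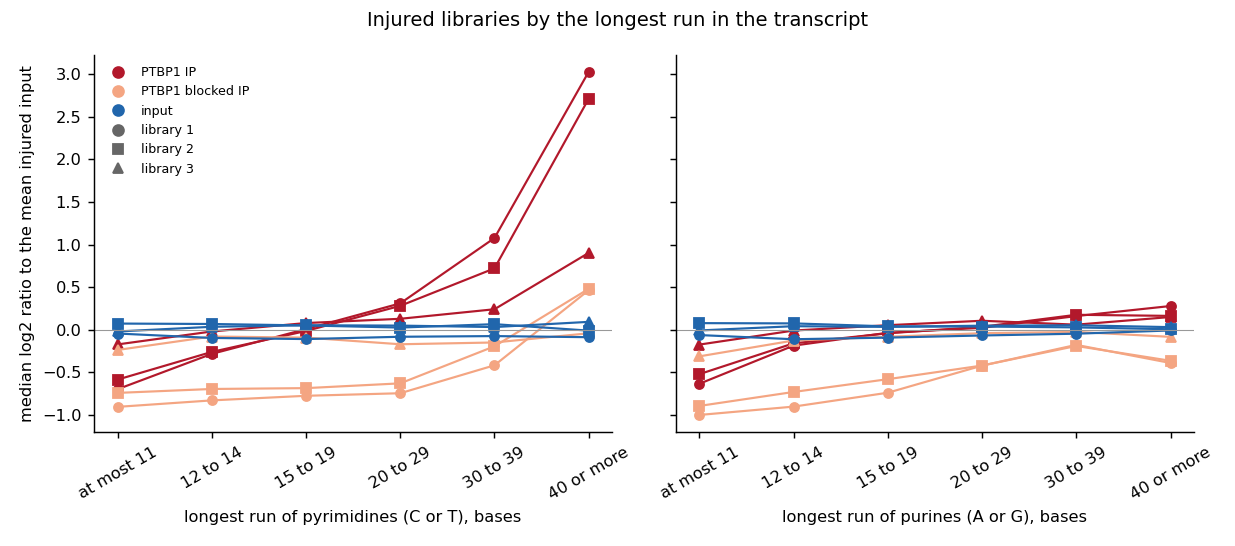
Median log2 ratio to the mean injured input (y axis) by the longest run of pyrimidines (left) or purines (right) in the transcript, in bases (x axis), 1 line per library of injured nerve. At 40 or more pyrimidines the IP lines end at 3.03, 2.71 and 0.90 and the blocked IP lines at 0.47, 0.48 and −0.04, while with purines the IP lines end at 0.28, 0.16 and 0.15.

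The order by run length was kept within each of the 5 classes of transcript length. In the shortest class, transcripts with a run of at least 30 had a median log2 fold change of 1.06 (n = 26) and those with at most 14 had −0.71 (n = 2088). In the longest class the medians were 1.70 (n = 372) and 0.00 (n = 706), and in the 3 classes between them 1.28 to 1.67 against −0.43 to −0.12. The position of the run was also uneven. In 108 of the 118 (91.5%) the longest run lay in the 3′ untranslated region, as in 44.9% of all. It lay in the 5′ untranslated region in 2, Camk2n1 and Ebf1, and in the coding region in 3, Zfp369, Ucp2 and Plagl1.

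Long runs that mix C and T stood apart from long runs of nearly one letter. Among runs of 40 or more, the median log2 fold change was 0.28 where at most 10% of the run was C (n = 17), 2.01 at over 10 to 30% (n = 125), 3.09 at over 30 to 50% (n = 202), 2.85 at over 50 to 70% (n = 149) and 0.49 above 70% (n = 9). The first and the last class hold under 20 transcripts. Runs of 30 to 39 gave 0.18 (n = 61), 0.55 (n = 124), 1.68 (n = 84), 0.81 (n = 87) and 0.42 (n = 17) over the same classes. Runs of 20 to 29 gave smaller medians, at 0.125 (n = 284), 0.32 (n = 341), 0.46 (n = 355), 0.38 (n = 377) and 0.06 (n = 103). The run of Actb printed above, which falls in that length class, is nearly all T, while those of Urod and Tagln2 alternate C and T. A run of T did not set a transcript apart in every case: Gatad1, with a run of 23 that is all T, was called higher at 3.04. Alternating CT repeats of 24 or more bases occurred in 185 transcripts, of which 30 were called higher, with a median of 3.21. The reverse complement, AG repeats of 24 or more bases, occurred in 140 transcripts, of which 0 were called by the edgeR test, with a median of 0.17.

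**Figure D5:**
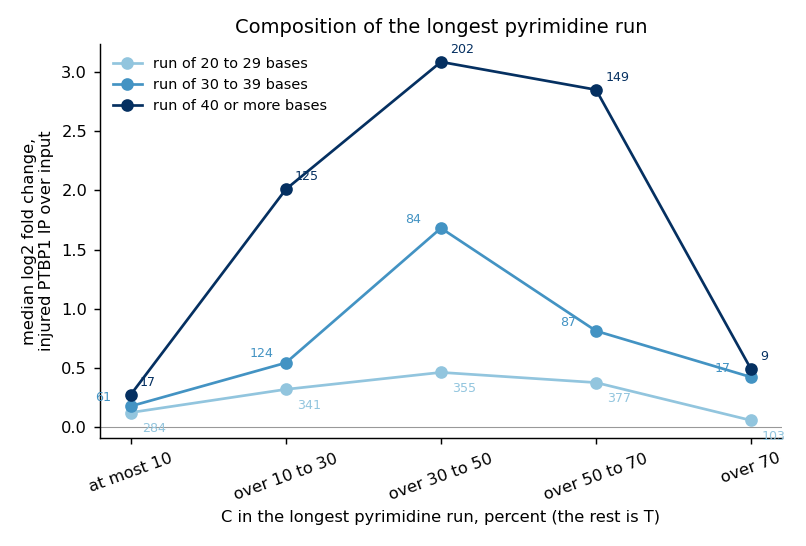
Median log2 fold change of injured PTBP1 IP over input (y axis) by the percent of C in the longest pyrimidine run (x axis), 1 line per class of run length, with the number of transcripts beside each point. For runs of 40 or more the median is highest, 3.09, at over 30 to 50% C, and falls to 0.28 and 0.49 at the ends.

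Short motifs told the transcripts apart less well, being common everywhere. CTCTCT (same strand, DNA letters) occurred in 105 of the 118 (89.0%) and in 61.7% of all, and TCTT in all 118 and in 98.0% of all. Per 1000 bases the median density of CTCTCT was 0.972 against 0.323 and that of TCTT 6.52 against 5.15. The match of letters is a description and not a binding site. In 9 of the 119 the longest run was under 16 bases: Bgn, Ttyh3, Tbl1x, Ntrk2, Plagl1, Ucp2, Zfp369, 9230105E05Rik and Gm26617.

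Transcripts of the same gene offered a comparison at equal gene. In 145 genes the tables list a transcript with a run of at least 30 and another with at most 14. The transcript with the long run had the higher log2 fold change in 109 of them (75.2%), and the medians were 1.52 and 0.14. Of the long-run transcripts 11 were called higher, and of the short-run transcripts 0 by the same edgeR test, beside 0.960% of all transcripts. Many short-run transcripts stood at a few CPM, a level at which calls were rare, so the 0 says little about the run. Son gave 5.86 and −0.04, Sp100 6.47 and −0.20, Stard5 6.67 and −1.18, and Samhd1, a dNTPase of innate immunity, 3.16 and −0.70, all 4 chosen after their values were seen. The short-run transcript of Son stood at 4.98, 5.40 and 3.96 CPM in IP and 5.89, 4.67 and 4.19 CPM in input, while the long-run transcript stood at 1299 CPM or more in IP. Reads common to both transcripts make such pairs depend on how counts were assigned, which the sources do not give.

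Most of the 119 transcripts also stood above input in blocked IP, at a lower level. The comparison of blocked IP with input uses the same 3 inputs, so the values are set side by side only. That of IP with blocked IP uses the same 3 IP libraries whose high values selected the 119. Its values for the 119 are raised by that choice and are no separate support. Over the 119, the median log2 fold change over input was 4.16 in IP and 1.62 in blocked IP, and IP over blocked IP had a median of 2.45, beside −0.09 and −0.06 over all transcripts in the last 2 contrasts. Blocked IP was above input in 103 of the 119, beside 47.5% of all transcripts, and by more than 2-fold in 76 of the 119. Low values in the same inputs helped to select the 119 and raise these counts. By edgeR 2 transcripts in all (0.0161%) were called between blocked IP and input, with 1834 at an unadjusted p under 0.05. They were Eif2a, a retained-intron transcript, at 6.45, and Pcdhb17, a protocadherin, at −7.42. IP exceeded blocked IP by the edgeR test in 246 transcripts (1.98%), and 35 of the 119 were among them. With library totals alone in place of TMM this comparison called 0 transcripts by edgeR, with 1747 at an unadjusted p under 0.05, and the median over all moved from −0.06 to −0.57. The count of higher and lower calls together was 249, and it was 350 without IP library 3, 87 without blocked IP library 3 and 2 to 4 without any 1 of the other 4.

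Single transcripts differed widely in how much of the rise the blocked IP shared. Apart from Shank1, St8sia1 and Ulk3, those named in the next sentences were chosen after their values were seen. Shank1 stood at 4487, 5554 and 377 CPM in blocked IP, above its IP libraries in 2 of 3, with a log2 fold change of IP over blocked IP of −0.90. St8sia1, Tox2, Wdr37 and Eif2a, too, had fitted values below 0 over blocked IP, at −0.73, −1.23, −0.24 and −0.28, and Ulk3 was at 0.11. At the other end, Ermp1, an endoplasmic reticulum peptidase, stood at 949, 770 and 81.0 CPM in IP, 6.40, 3.75 and 15.3 CPM in blocked IP and 14.95, 22.5 and 14.2 CPM in input. It was 6.14 above blocked IP on the log2 scale (edgeR adjusted p = 0.0218). Fcer1g, the Fc receptor gamma chain of myeloid cells, stood at 20478, 7478 and 3288 CPM in IP, 502, 463 and 617 CPM in blocked IP and 721, 472 and 1105 CPM in input, at 4.30 over blocked IP (edgeR adjusted p = 0.0101).

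Col1a1, Marcks and Gatm were of the second kind. Col1a1 stood at 7809, 9721 and 5744 CPM in blocked IP, Marcks at 3470.0, 4977 and 2863, and Gatm at 2776, 1834 and 2119. In all 3 genes the blocked IP overlapped the inputs, and the log2 fold changes of IP over blocked IP were 3.39, 3.31 and 4.04 (edgeR adjusted p = 0.0243, 0.0192 and 0.0192). The log2 fold changes of Frg1, Son and Khsrp over blocked IP were 4.48, 3.25 and 3.75, with edgeR adjusted p of 0.0334, 0.0784 and 0.0273. Blocked IP libraries 1 and 2 had 18.9% and 20.8% of the joined transcripts at 0 counts, against 0.153% to 3.44% in the IP libraries. In blocked IP library 1, adipocyte and axon markers summed to 19156 and 1901 CPM, against 420 to 478 and 145 to 205 CPM in the inputs. Their part in the results was not tested.

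In naive nerve the 119 transcripts also stood above input in PTBP1 IP. The naive contrast uses other libraries of the same antibody and its own inputs. Of the 119, 118 had a naive log2 fold change above 0, beside 48.5% of all transcripts, and their naive median was 3.26. By edgeR 26 transcripts (0.210%) were called higher in naive IP than in naive input, and 23 of these were among the 119. With DESeq2 size factors 1 transcript was called in the naive contrast, and with its 6 libraries alone 0 by edgeR, with 1306 at an unadjusted p under 0.05. It was 209 without naive IP library 3 and 0 without naive IP library 1 or 2 or any 1 naive input, with 469 to 749 at an unadjusted p under 0.05. The median ratio of the 119 to the mean naive input was 17.0, 9.87 and 2.12 in naive IP libraries 1 to 3 and 1.71, 1.58 and 1.13 in naive blocked IP. The class with runs of 40 or more had a naive median of 2.26, with 3.02, 1.96 and 0.47 in the 3 naive IP libraries. As in injured nerve, IP library 3 was the lowest.

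The change of IP over input with injury was tested as an interaction in the same fit. By edgeR 0 transcripts were called, with 272 of 12393 at an unadjusted p under 0.05 and a smallest adjusted p of 0.9999. The 272 are fewer than that threshold would pass if nothing differed. Some fitted differences were large against their errors without passing. The transcripts named next had all been called higher in injured IP over input. That choice raises their difference between injured and naive, so these values are no separate support for a change with injury. For Col1a1 the naive IP libraries stood at 14979, 9781 and 6601 CPM and the naive inputs at 4449, 4232 and 5808 CPM, a log2 fold change of 1.11, and the difference between injured and naive was 2.63 ± 0.86. For Fcer1g the difference was 2.28 ± 0.77, for Gatm 2.22 ± 0.84 and for Marcks 1.59 ± 0.71, each with an adjusted p of 0.9999. For Urod it was 0.65 ± 1.19 and for Bgn −0.88 ± 1.39. Standard errors of this size leave room for differences of several fold in either direction.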

How the data were processed

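RNA of PTBP1 IP, blocked IP and input of sciatic nerve axoplasm was sequenced, and the authors deposited raw counts per transcript in separate tables for IP and input. The submitters' processing notes name CASAVA 1.8.2, edgeR and mm10. Aligner, counter, use of strand and treatment of reads with several matches: not given in the sources used here. Both tables had been reduced by the authors before deposit: injured inputs 2 and 3 hold no transcript under 5 counts. In the PTBP1 table every transcript has at least 5 counts in all 3 libraries of some group. The tables were joined by transcript identifier (15041 in the PTBP1 table, 15006 in the input table, 12399 in both), so TMM scaled IP and input over the joined transcripts only. GENCODE M21 on GRCm38 matched 98.2% of them. The column of naive blocked IP 3 carried a different name and was matched by its title. A total of 137 other per-sample columns were not used.

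Counts of 18 libraries were fitted with edgeR 4.0.16 in R 4.3.3 (filterByExpr, TMM, quasi-likelihood test, Benjamini-Hochberg adjustment over 12393 transcripts, threshold 0.05), with 1 group per condition and library kind and no replicate block. CPM use TMM-scaled totals. The 3 libraries of a group are independent repeats. The p-values and standard errors rest on the spread within groups, pooled over all groups of the 18 libraries, blocked IP included. Shares of counts were compared by exact permutation tests (scipy 1.17.1). Joined totals were 7514641 counts or more in the 6 libraries, and 95% Wilson intervals of shares reached at most 0.036 percentage points to each side. These intervals cover counting error only. The fit was also run on simulated counts in which all libraries of a group shared the same mean per transcript. Such counts hold no shift of a whole library like that of IP library 3, so the simulation is no check on the calls in its presence.

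Named transcripts were up to 12 higher and 12 lower with the largest log2 fold change among those called, with no overlap between groups, a mean of at least 10 CPM in the higher group, 1 per gene, predicted genes left out; the 6 most abundant in IP and in input; up to 4 called members of each of 32 gene lists, or its 2 most abundant; and the Ptbp genes, Ncl, Kpnb1, Mtor, Rhoa, Stat3, Yam1, Lars2 and Gm15564. Others were named after their values were seen. In the gene lists each gene was represented by a single transcript, picked for its average level across all libraries of the fit, IP included. The transcripts compared, the lists and the tests were chosen with earlier results of these data known. Measures of pyrimidine runs, repeats and transcript pairs were added after the leading transcripts were seen. Alternatives were DESeq2 1.42.0 size factors and its Wald test, library totals, no low-count filter, a replicate block, limma 3.58.1 voom, the 6 libraries alone, removal of Yam1, Lars2 and Gm15564, counts summed per gene, and each library left out. Libraries of other antibodies were not analysed here.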

Additional observations from a re-analysis of the deposited data

Results flagged for a closer look

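Transcripts of the PTBP1 table that the input table does not list had no input to be set against. Of 2642 such transcripts, 714 (27.0%) had every injured IP library above every blocked IP library and 111 every IP library below. Among the 12399 transcripts that both tables list, these were 1398 (11.3%) and 1209 (9.75%). Whether the shares differ was not tested. The 3 with the highest mean in IP were Cant1, at 129, 4.84 and 0.518 CPM (mean 44.7) against 0.157, 0 and 0 CPM in blocked IP, Iffo1, at 124, 3.63 and 0.706 CPM (mean 42.6) against 0.157, 0.238 and 0 CPM, and 2310001H17Rik, at 50.9, 53.5 and 6.73 CPM (mean 37.0) against 0, 0.832 and 0.171 CPM. The means of Cant1 and Iffo1 rest on IP library 1, while 2310001H17Rik was raised in libraries 1 and 2.

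Fabp4, a fatty acid-binding protein of adipocytes, moved in opposite directions in the 2 conditions. In injured nerve it stood at 213, 78.7 and 218 CPM in IP, all below the inputs at 359, 377 and 306 CPM. In naive nerve it stood at 1935, 1436 and 917 CPM in IP, all above the inputs at 807, 754 and 912 CPM. The fitted difference between injured and naive was −1.82 ± 1.52 on the log2 scale (edgeR adjusted p = 0.9999), which did not pass. Blocked IP library 1 of injured nerve held 12228 CPM of Fabp4, and its part was not tested.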

How the results depend on the processing

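For IP over input, the 127 calls became 197 with DESeq2 size factors, 81 with library totals, 161 with the replicate block, 877 with the 6 libraries alone, 162 with those 6 and the replicate block, 641 with DESeq2's Wald test, 0 with limma voom and 0 to 372 with 1 library left out. The split between higher and lower was 189 to 8, 79 to 2, 141 to 20, 740 to 137, 157 to 5 and 517 to 124 in the first 6. Of the 127, the fit with library totals called 78, that with the replicate block 114, that with the 6 libraries alone 120, and that with those 6 and the replicate block 44. The count was 127 without a low-count filter, 128 with Yam1, Lars2 and Gm15564 removed and 184 summed per gene. Whether the replicate numbers pair the libraries is not settled. Deviations of same-numbered IP and input libraries correlated weakly, at 0.0808, 0.102 and 0.0254. Other combinations gave −0.0812 to 0.0108, so each library correlated best with its own number, a hint from the data only.

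For blocked IP over input, 2 calls became 0, 15, 8, 4 and 0 with DESeq2 size factors, library totals, replicate block, the 3 transcripts removed and the libraries compared alone, and 0 to 116 with 1 library left out. For IP over blocked IP, 249 became 0 with library totals, 92 with the replicate block, 0 with the libraries alone and 2 to 350 with 1 left out. For naive nerve, 27 became 1 with DESeq2 size factors, 42 with the replicate block, 43 with the 3 removed, 0 with the libraries alone and 0 to 209 with 1 left out. The difference with injury had 0 calls by edgeR in every alternative run, with 139 to 908 at an unadjusted p under 0.05. Ptbp3 (ENSMUST00000151313) went from 0.28 to −0.12 with library totals, −0.04 with the replicate block and −0.92 to 0.82 with a library left out. Mtor went from −0.05 to 0.02 with DESeq2 size factors, 0.04 with library totals and −1.07 to 0.40 with a library left out. The gap in median log2 fold change between runs of 40 or more and at most 11 was 3.05 and ranged from 2.59 to 3.76. The cause of these changes was not tested. Depth limited transcripts under about 1 CPM.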
